A study of Mus musculus with 4 samples.

Results

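The 10 genes described here encode AP1 transcription factors and MYC. They were taken by symbol from the deposited expression table: the JUN genes Jun, Junb and Jund, the FOS genes Fos, Fosb, Fosl1 and Fosl2, the related factors Atf2 and Jdp2, and Myc. All 10 were found among 38713 genes, and all 10 were among the 12998 genes tested. RNA was sequenced from 4 cultured lines that were grown from mammary tumors of C57BL/6 mice, with 1 library per line. The 2 JNK_WT lines (p53-/-, numbered 1 and 2) came from mice in which Wap-Cre, a recombinase made by luminal mammary epithelium during lactation, deleted floxed Trp53. For the 2 JNK_KO lines (p53-/- JNK-/-, numbered 1 and 3), Wap-Cre had removed, besides Trp53, the floxed JNK1 and JNK2 genes Mapk8 and Mapk9. Both groups thus lack p53, each line was derived from tumor tissue on collagen and then grown in plain culture dishes, and the labels give no age of the animals.

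AP1 is a family of dimers. JUN proteins pair with each other or with FOS proteins through a leucine zipper, whereas FOS proteins do not form stable dimers with themselves and need a JUN partner. JNK phosphorylates the amino-terminal activation domain of JUN and also phosphorylates JUND and ATF2, so the composition of the family sets which dimers JNK can act on. MYC is a helix-loop-helix factor that binds DNA with its partner MAX and drives growth and proliferation, and it is among the most frequently altered oncogenes of breast cancer. The comparison of JNK_KO with JNK_WT lines addresses how gene expression in these tumor cells differs when JNK is absent.

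Levels are given as FPKM, that is, fragments scaled for the length of a gene's exons and for the number of mapped fragments in the library, which allows genes of different length to be compared. The step that a single read makes in low values corresponded to about 40.3 to 59.7 M reads per library, and these estimates carry no error. As a check of the labels, Mapk8 was at 23.9 and 19.1 FPKM in JNK_WT 1 and 2 and at 4.30 and 4.27 FPKM in JNK_KO 1 and 3. Mapk9 was at 29.7 and 24.3 FPKM against 12.6 and 8.66 FPKM, and both genes were lower in both JNK_KO lines. Trp53, floxed in all lines, was at 1.55 and 4.15 FPKM against 5.72 and 4.28 FPKM. Summed epithelial markers (Epcam, Cdh1, Krt8, Krt18, Krt5 and Krt14, all 6 in the table) ranged from 2566 to 2999 FPKM in JNK_WT lines and from 899 to 2041 FPKM in JNK_KO lines. Summed fibroblast markers ranged from 1.40 to 11.7 FPKM in JNK_WT lines and from 106 to 174 FPKM in JNK_KO lines. That gap rested on Dcn and Pdgfra, while the defining collagen gene Col1a1 was under 1 FPKM in each library. All 5 leukocyte and all 3 endothelial markers were under 1 FPKM in each library. The groups were separate for 2 of the 5 tested epithelial markers, Epcam and Krt8, both lower in JNK_KO lines. They were separate for 2 of the 3 tested fibroblast markers, Dcn and Pdgfra, both higher, while the other tested markers overlapped. Of all tested genes, 16.7% had separate groups in the lower direction and 18.3% in the higher direction. The part of these marker differences in the results below was not tested. Fewer cells of a type and less RNA per cell cannot be told apart in such bulk samples.

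The promoters of Jun and Fos are shown first because they carry the sites marked below. In Jun, a pair of AP1-like sites is known to bind dimers of JUN and ATF2. Of the 10 members 8 had a RefSeq promoter (GRCm38.p6, 250 bases before to 50 bases after the start), and Fosl1 and Myc were not among them. The Jun stretch spans chr4:95052253-95052402 on the minus strand, from 180 to 31 bases before the start, and the Fos stretch spans chr12:85473800-85473859 on the plus strand, from 90 to 31 bases before the start. Capitals mark the sites TTACCTCA and TGACATCA in Jun and the core TGACGT of a cyclic AMP response element in Fos.
Jun: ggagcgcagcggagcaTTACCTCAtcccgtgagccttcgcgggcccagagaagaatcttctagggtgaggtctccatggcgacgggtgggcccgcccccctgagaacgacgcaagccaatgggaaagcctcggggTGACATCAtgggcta
Fos: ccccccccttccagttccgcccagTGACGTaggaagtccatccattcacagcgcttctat

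Searched on both strands, TTACCTCA occurred in 0.889% and TGACATCA in 3.62% of all 32851 promoters of this length, and among the members each occurred in Jun alone. TGACGT occurred in 7.51% of promoters, and among the members in Fos and Jdp2. The consensus AP1 site TGACTCA (5.2% of promoters), the full element TGACGTCA (1.79%, which contains TGACGT) and the E-box CACGTG (7.15%) occurred in none of the members' windows. These matches describe letters in a window, and no binding was measured.

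Among the JUN genes, Junb was the most abundant in each line, and Jun and Jund divided the remainder differently from line to line. Jun (mm10 chromosome 4, 95049034 to 95052222, minus strand), the founding member and the classical JNK substrate, was at 13.9 and 14.6 FPKM in JNK_WT 1 and 2 and at 26.6 and 16.0 FPKM in JNK_KO 1 and 3. Both JNK_KO lines lay above both JNK_WT lines, and JNK_KO 1 stood well above the other lines. The group means were 14.2 ± 0.482 FPKM and 21.3 ± 7.47 FPKM (SD, n = 2 each), a ratio of 1.498, and the log2 difference was 0.51 (95% interval -0.39 to 1.41), with a limma adjusted p-value of 0.893. That difference was 0.16 without JNK_KO 1 and 0.86 without JNK_KO 3. The interval includes both a decrease and an increase.

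Junb (chromosome 8, 84974484 to 84978718, minus strand), whose product is often a weaker activator than JUN and can oppose it, was at 110 and 232 FPKM in JNK_WT lines and at 149 and 289 FPKM in JNK_KO lines. The groups overlapped, with each genotype holding a lower and a higher line. The log2 difference was 0.37 (95% interval -1.01 to 1.75, limma adjusted p-value 0.995), and it was -0.16 without JNK_WT 1 and -0.10 without JNK_KO 3. Jund (chromosome 8, 70698949 to 70700616, plus strand) is expressed steadily in most tissues rather than induced. Its level was 45.9 and 40.9 FPKM in JNK_WT lines and at 16.6 and 50.4 FPKM in JNK_KO lines. Here 1 line stood apart, JNK_KO 1, and the other lines were close to each other. The log2 difference of -0.56 (95% interval -2.06 to 0.94, limma adjusted p-value 0.978) became 0.21 without JNK_KO 1.

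**Figure D1:**
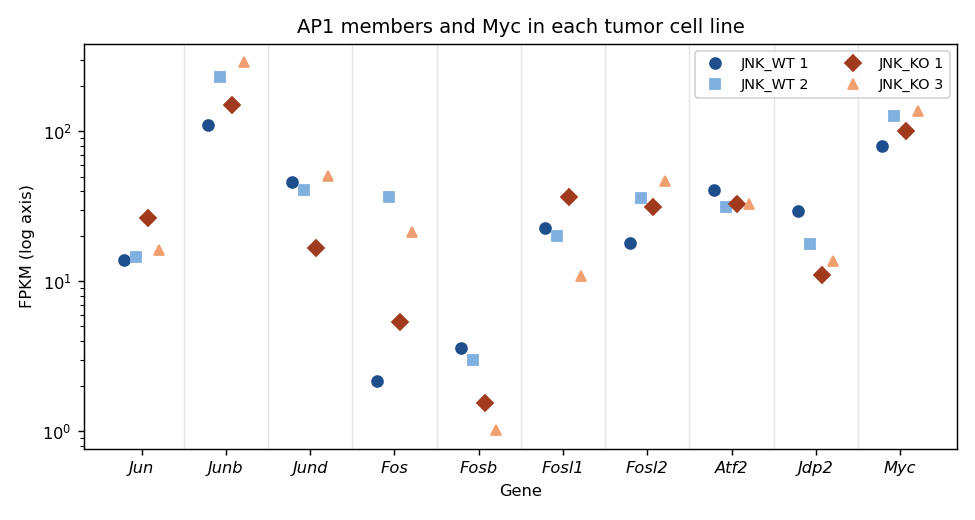
Level of each AP1 gene and of Myc in the 4 lines, in FPKM on a log axis, with 1 point per library and no error bar since each line has 1 library. Blue points are JNK_WT and red or orange points JNK_KO lines. Fos spans the widest range (2.17 to 36.7 FPKM), Atf2 the narrowest, and for Fosb and Jdp2 both JNK_KO points lie below both JNK_WT points.

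The composition of the JUN pool was described as the share of each gene in the summed FPKM of Jun, Junb and Jund, a quantity that scaling between libraries cannot alter. Junb made up 64.9% and 80.7% of the pool in JNK_WT 1 and 2 and 77.5% and 81.3% in JNK_KO 1 and 3. Jund made up 27.0% and 14.22% against 8.63% and 14.20%, so that its groups only just did not overlap. Jun made up 8.16% and 5.07% against 13.8% and 4.52%. JNK_WT 2 and JNK_KO 3 were thus almost the same mixture, JNK_WT 1 was the line richest in Jund, and JNK_KO 1 was the line richest in Jun. In JNK_KO 1 Jun exceeded Jund (a ratio of 1.60), whereas in the other lines the ratio of Jun to Jund lay between 0.303 and 0.357. The mean shares differed between genotypes by 2.56 percentage points for Jun, 6.62 for Junb and -9.18 for Jund. Lines of the same genotype differed by up to 9.30, 15.8 and 12.7 points for these genes, so that each difference was smaller than the gap within a genotype. The Jun difference was -2.09 points without JNK_KO 1, 1.01 without JNK_WT 2, 4.10 without JNK_WT 1 and 7.21 without JNK_KO 3. The Junb difference was -1.30 points without JNK_WT 1 and 14.5 without JNK_WT 2. The Jund difference was -2.80 points without JNK_WT 1 and -15.6 without JNK_WT 2, so that its size rested on which JNK_WT line was kept.

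The 4 FOS genes varied to different degrees, Fos the most. Fos (chromosome 12, 85473890 to 85477273, plus strand), the immediate early partner of JUN that is induced within minutes by growth factors, was at 2.17 and 36.7 FPKM in JNK_WT 1 and 2 and at 5.34 and 21.2 FPKM in JNK_KO 1 and 3. JNK_WT 1 and JNK_KO 1 were low and the other lines high, and the JNK_KO values lay between the JNK_WT values. The highest line was 16.9 times the lowest, and the range of Fos over the lines on the log2(FPKM + 1) scale was larger than that of 96.6% of tested genes. The lowest value corresponded to about 228 reads. The log2 difference between genotypes was 0.12 with a 95% interval of -3.51 to 3.75 (limma adjusted p-value 0.999), and it was -1.67 without JNK_WT 1 and -0.79 without JNK_KO 3.

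Fosb (chromosome 7, 19302696 to 19310051, minus strand), a paralog of Fos that is also rapidly induced, had the lowest mean level of the members in both genotypes, although Fos was lower in JNK_WT 1. It was at 3.61 and 3.003 FPKM in JNK_WT lines and at 1.53 and 1.01 FPKM in JNK_KO lines, values that correspond to about 377 to 1009 reads. Both JNK_KO lines lay below both JNK_WT lines, and the lines of a genotype were close together. The means were 3.31 ± 0.431 FPKM and 1.27 ± 0.369 FPKM (SD, n = 2 each), a ratio of 0.385. The log2 difference was -0.93 (95% interval -1.78 to -0.074), the limma unadjusted p-value was 0.0387, and the adjusted p-value over all tested genes was 0.608. Fosb was the 1 member of the 10 with an unadjusted p-value under 0.05, against 7.63% of tested genes.

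Fosl1 and Fosl2 encode FRA1 and FRA2, which lack the carboxy-terminal activation domain of FOS. Fosl1 (chromosome 19, 5447547 to 5455946, plus strand), which is often high in basal and invasive breast cancer cells, was at 22.8 and 20.1 FPKM in JNK_WT lines and at 36.7 and 10.9 FPKM in JNK_KO lines. The JNK_KO lines lay on either side of the JNK_WT lines. The log2 difference was -0.079 (95% interval -1.69 to 1.53, limma adjusted p-value 0.999), and it was 0.0084 without JNK_WT 1 and 0.75 without JNK_KO 3. The level of Fosl2 (chromosome 5, 32135801 to 32157842, plus strand) was 17.9 and 36.2 FPKM in JNK_WT lines and at 31.5 and 46.6 FPKM in JNK_KO lines. JNK_WT 1 was the lowest and JNK_KO 3 the highest, and the groups overlapped. The log2 difference was 0.57 (95% interval -0.59 to 1.73, limma adjusted p-value 0.933), and it was 0.081 without JNK_WT 1, 0.29 without JNK_KO 3 and 1.05 without JNK_WT 2.

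The mixture of FOS genes differed widely between lines of the same genotype. Fosl1 was the largest component of the FOS pool in JNK_WT 1 (49.0%) and JNK_KO 1 (48.9%), but held 20.9% in JNK_WT 2 and 13.7% in JNK_KO 3. Fos held 4.66% and 7.12% in the former pair of lines and 38.2% and 26.6% in the latter. The epithelial marker Krt14 was at 7.34 and 26.7 FPKM in the former pair and at 443 and 313 FPKM in the latter. Krt5 was at 61.9 FPKM in JNK_WT 2 and under 1 FPKM in the other lines. A link between these markers and the FOS mixture was not tested. Fosl2 held 38.6% and 37.7% in JNK_WT lines and 42.0% and 58.4% in JNK_KO lines, so that it was the largest component in JNK_KO 3. Fosb held 7.77% and 3.13% against 2.05% and 1.27%. The groups did not overlap for the shares of Fosl2 and Fosb and overlapped for those of Fos and Fosl1. For levels rather than shares, groups did not overlap for 35% of tested genes. The mean shares differed by 12.1 percentage points for Fosl2, -3.79 for Fosb, -4.59 for Fos and -3.68 for Fosl1. The gap between lines of a genotype reached 16.4 points for Fosl2, 4.64 for Fosb, 33.6 for Fos and 35.2 for Fosl1, which exceeded each of these differences. The Fos share difference was -21.4 points without JNK_WT 1, -14.3 without JNK_KO 3, 12.2 without JNK_WT 2 and 5.15 without JNK_KO 1. The Fosl1 share difference was 10.4 points without JNK_WT 1, 13.9 without JNK_KO 3, -17.7 without JNK_WT 2 and -21.3 without JNK_KO 1. These differences thus had no stable direction. The Fosl2 share difference was 3.84 points without JNK_KO 3 and 20.3 without JNK_KO 1, and the Fosb share difference was -1.47 points without JNK_WT 1 and -6.11 without JNK_WT 2.

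**Figure D2:**
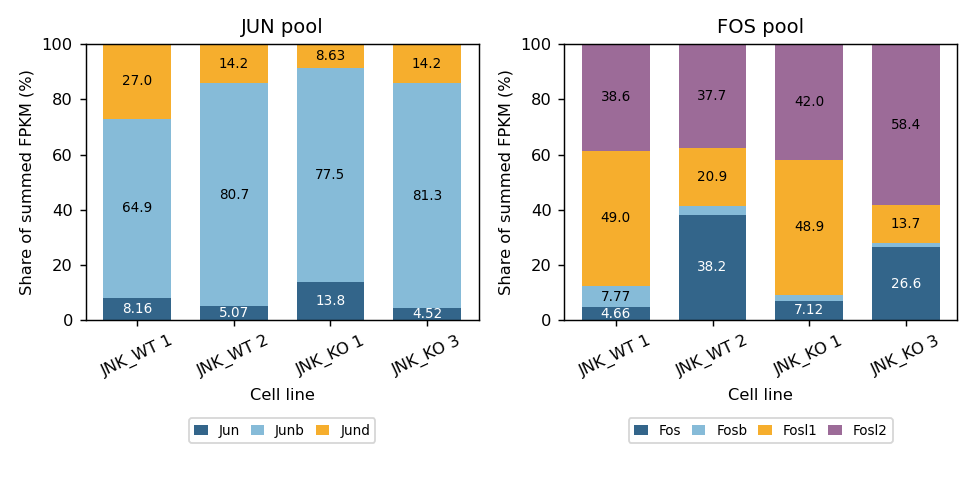
Share of each gene in the summed FPKM of the JUN genes (left) and of the FOS genes (right), in percent, with 1 stacked bar per line and shares over 4 percent printed. Junb fills most of each JUN bar, and Fosl1 holds 49.0% and 48.9% of the FOS bar in JNK_WT 1 and JNK_KO 1 but 20.9% and 13.7% in JNK_WT 2 and JNK_KO 3.

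A distance between lines was computed as the share of a pool, in percentage points, that would have to change gene for a pair of lines to match. For the FOS pool the closest pair was JNK_WT 1 and JNK_KO 1, at 5.85 points, while the JNK_WT lines were 33.6 points apart and the JNK_KO lines 35.9 points apart. For the JUN pool the closest pair was JNK_WT 2 and JNK_KO 3, at 0.572 points, while the JNK_WT lines were 15.8 points and the JNK_KO lines 9.30 points apart. In both pools the nearest lines were of different genotype. More pairs of lines differ in genotype than share it, so this is no test of genotype. The closest FOS pair was 18.3 points apart in the JUN pool, the farthest pair there.

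JUN transcripts exceeded FOS transcripts in each line. The JUN pool summed to 170 and 288 FPKM in JNK_WT 1 and 2 and to 193 and 355 FPKM in JNK_KO 1 and 3, and the FOS pool to 46.5 and 95.9 FPKM against 75.02 and 79.7 FPKM. The ratio of the JUN pool to the FOS pool was 3.66 and 2.9995 in JNK_WT lines and 2.57 and 4.45 in JNK_KO lines, with overlapping groups. The pools spanned similar ranges over the lines, with the highest sum 2.08 times the lowest for JUN and 2.06 times for FOS. Of the ratios computed, that of Junb to Fosl2 spanned the narrowest range. It was 6.16, 6.42, 4.74 and 6.20 in JNK_WT 1, JNK_WT 2, JNK_KO 1 and JNK_KO 3. A link between these 2 genes was not tested.

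Atf2 (chromosome 2, 73816509 to 73892639, minus strand), a partner of JUN that both JNK and p38 phosphorylate, was the steadiest member. It was at 40.3 and 31.2 FPKM in JNK_WT lines and at 32.7 and 32.6 FPKM in JNK_KO lines, and the groups overlapped. Its range over the lines was larger than that of 12.4% of tested genes. The log2 difference was -0.12 (95% interval -0.79 to 0.56, limma adjusted p-value 0.999), and it was 0.064 without JNK_WT 1.

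Jdp2 (chromosome 12, 85599027 to 85639878, plus strand) encodes a small dimerization partner that represses AP1 sites. It was at 29.3 and 17.7 FPKM in JNK_WT lines and at 11.1 and 13.7 FPKM in JNK_KO lines. Both JNK_KO lines lay below both JNK_WT lines, although the spread between the JNK_WT lines was wider than the gap that separated the groups. The means were 23.5 ± 8.23 FPKM and 12.4 ± 1.87 FPKM (SD, n = 2 each), a ratio of 0.529, with a log2 difference of -0.83 (95% interval -1.77 to 0.11) and a limma adjusted p-value of 0.713. The difference was -0.48 without JNK_WT 1. Fos and Jdp2 are neighbors with 121753 bases between them, and the 412 tested genes of chromosome 12 had a median log2 difference of -0.41, against 0.013 over all tested genes. The part of this shift of chromosome 12 in the values of Jdp2 and Fos was not tested.

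Myc (chromosome 15, 61985391 to 61990374, plus strand) was abundant in all 4 lines, at 79.8 and 127 FPKM in JNK_WT 1 and 2 and at 100 and 136 FPKM in JNK_KO 1 and 3. It lay above 89.8% to 94.7% of tested genes in each library. The groups overlapped, and JNK_WT 1 was again the lowest and JNK_KO 3 the highest line. The log2 difference was 0.21 (95% interval -0.68 to 1.11, limma adjusted p-value 0.997), and it was -0.12 without JNK_WT 1 and -0.0031 without JNK_KO 3. Max, the obligate partner of MYC, was at 35.7 and 44.6 FPKM in JNK_WT lines and at 35.5 and 44.6 FPKM in JNK_KO lines. The ratio of Myc to Max was 2.23 and 2.85 in JNK_WT lines and 2.83 and 3.04 in JNK_KO lines.

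Across the 10 members, 0 were called different between genotypes (limma, adjusted p-value under 0.05 and an absolute log2 difference over 0.75), and 0% of all tested genes were. The adjusted p-values of the members lay between 0.608 and 0.999. An absolute log2 difference over 0.75 was found for 2 members, Fosb and Jdp2, both lower in JNK_KO lines, where 6.43% of tested genes were that much lower and 9.25% that much higher. This count was 5 without JNK_WT 2, 5 without JNK_KO 1 and 6 without JNK_KO 3. Groups did not overlap for 3 members, Jun (higher in JNK_KO lines), Fosb and Jdp2 (both lower), where 35% of tested genes had such groups (18.3% higher and 16.7% lower). A count of 3 in 10 is near that background and is no result about the family. The median log2 difference was 0.020 over the members and 0.013 over all tested genes.

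**Figure D3:**
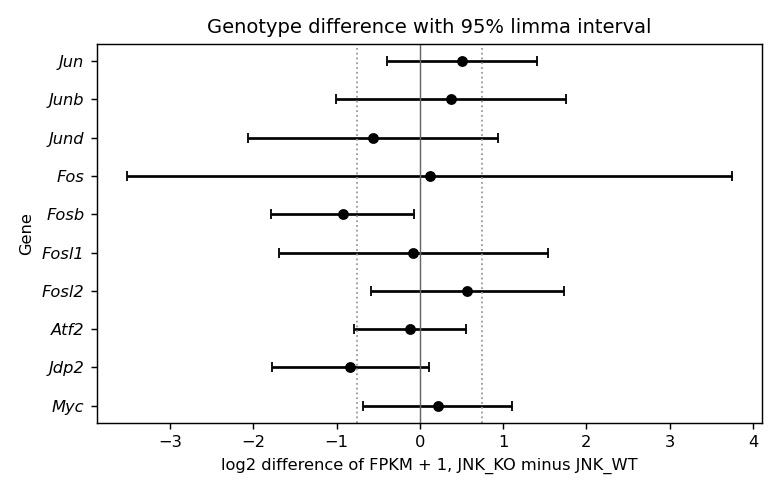
Difference of each gene between genotypes on the log2(FPKM + 1) scale, JNK_KO minus JNK_WT, with the 95% interval of the limma fit (2 lines per group). Dotted lines mark a difference of 0.75 in either direction. The interval of Fosb (-1.78 to -0.074) lies below 0, without adjustment for the number of genes tested, and the other 9 include 0.

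With 2 lines against 2, the exact permutation test of a single gene cannot give a p-value under 0.333. The narrowest of the 95% intervals was that of Atf2, and the widest that of Fos.

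Between lines of the same genotype, some members differed more than the median tested gene and others less. A median is exceeded by as many genes as fall below it, so these gaps are no result about the family. On the log2(FPKM + 1) scale, the median tested gene differed by 0.43 between the JNK_WT lines and by 0.33 between the JNK_KO lines. Between the JNK_WT lines Fos differed by 3.57, Junb by 1.06, Fosl2 by 0.97, Jdp2 by 0.70 and Myc by 0.66. Atf2 (0.36), Fosb (0.20), Fosl1 (0.18), Jund (0.16) and Jun (0.065) differed there by less than the median. Between the JNK_KO lines Fos differed by 1.81, Fosl1 by 1.66, Jund by 1.54, Junb by 0.95 and Jun by 0.70. Fosl2 (0.55) and Myc (0.43) were also above the median, Fosb (0.33) was near it, and Jdp2 (0.29) and Atf2 (0.0063) were below it. Junb, Fosl2 and Myc placed the 4 lines in the same order, rising from JNK_WT 1 through JNK_KO 1 and JNK_WT 2 to JNK_KO 3. That order was taken from Junb, which therefore matches it by construction. With Junb counted, 3 of the 10 members had it, and 4.42% of tested genes did. It was noticed after the values were seen, so these shares are not a test.

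Genes that act with the family were examined as lists. Of 12 further AP1 partners 9 were tested, 0 were called, and the median log2 difference was 0.13. JNK_KO and JNK_WT values were separate for 3 of these genes, of which Maf and Atf7 are described here. Separate groups were found for 35% of all tested genes, so that the count is no result about the list. Maf, a leucine zipper factor, was at 1.90 and 1.02 FPKM in JNK_WT lines and at 12.9 and 1.99 FPKM in JNK_KO lines (log2 difference 1.41, SE 0.82, limma adjusted p-value 0.853). Both JNK_KO lines lay above both JNK_WT lines, and JNK_KO 1 stood far above the others. Atf7, the closest relative of Atf2, was at 4.29 and 3.90 FPKM in JNK_WT lines and at 1.85 and 1.65 FPKM in JNK_KO lines (log2 difference -0.89, SE 0.30, limma adjusted p-value 0.581). Its values within each genotype were close, unlike those of Maf.

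In the MYC network of 12 genes, 10 were tested and 9 of these had overlapping groups, while 35% of all tested genes had separate groups. The gene with separate groups was Mycl, a MYC paralog. It was at 0.656 and 1.33 FPKM in JNK_WT lines and at 10.4 and 6.22 FPKM in JNK_KO lines. Its log2 difference was 2.21 (SE 0.40, limma adjusted p-value 0.286), and it was far below Myc in each line. The median of the network was -0.041, and the MXD, MNT and MGA genes, whose products compete for MAX, differed by at most 0.26 in either direction.

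The 15 immediate early genes, which like Fos respond to growth factors and stress without new protein synthesis, were all tested, with 0 called and a median log2 difference of -0.089. The groups were separate for 4 of these genes, higher for 3 and lower for 1, where 35% of all tested genes had separate groups, so that the count is no result about the list. Egr2, a zinc finger factor, was at 0.259 and 1.04 FPKM in JNK_WT lines and at 1.80 and 2.25 FPKM in JNK_KO lines (log2 difference 0.91, SE 0.38, limma adjusted p-value 0.703). The 6 genes of SRF and its cofactors, which switch on Fos, had 0 differences over 0.75 and a median of -0.041. The 8 genes that control turnover of JUN and MYC proteins, among them the ubiquitin ligases Fbxw7 and Itch, also had 0 over 0.75, and their median was 0.082. Of all tested genes, 15.7% had an absolute difference over 0.75.

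Target genes were listed from knowledge of the field, and many of them answer to other factors too. Of 14 AP1 targets, all tested, 0 were called, while 4 had an unadjusted p-value under 0.05 (background 7.63%). A log2 difference over 0.75 was found in the higher direction for 5 and in the lower direction for 2 (background 9.25% and 6.43%). Mmp3, a matrix protease, was at 2.09 and 8.15 FPKM in JNK_WT lines and at 51.2 and 28.7 FPKM in JNK_KO lines (log2 difference 2.89, SE 0.64, limma adjusted p-value 0.378). Mmp9, another matrix protease, was at 13.996 and 0.516 FPKM against 48.3 and 22.2 FPKM. Il6, a cytokine, was listed at 0 and was at 0.436 FPKM in JNK_WT 1 and 2, and was at 3.86 and 13.0 FPKM in JNK_KO 1 and 3. The 2 lower genes, named after their values were seen, were Plau, the urokinase protease (761 and 52.8 FPKM against 42.8 and 41.3 FPKM), and its receptor Plaur (84.5 and 81.7 FPKM against 52.0 and 24.8 FPKM). The median of the list was 0.26. Mmp3, Mmp9 and Il6 are also made by stromal cells. Of the 3 tested fibroblast markers, Dcn and Pdgfra were also higher in JNK_KO lines. Col1a2 had a log2 difference of -0.68 with overlapping groups, and Col1a1 was under 1 FPKM in each library. A link between these markers and the targets was not tested.

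Of 16 MYC targets, all tested, 0 were called and the median log2 difference was 0.046. An absolute difference over 0.75 was found for 1 gene, Ccnd2, which encodes cyclin D2, and for 15.7% of all tested genes. Ccnd2 was at 154 and 98.5 FPKM in JNK_WT lines and at 11.1 and 5.59 FPKM in JNK_KO lines, a log2 difference of -3.80 (SE 0.43, limma adjusted p-value 0.144). The other 15 targets, most of which serve ribosome production, metabolism or translation, differed by less than 0.75.

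**Figure D4:**
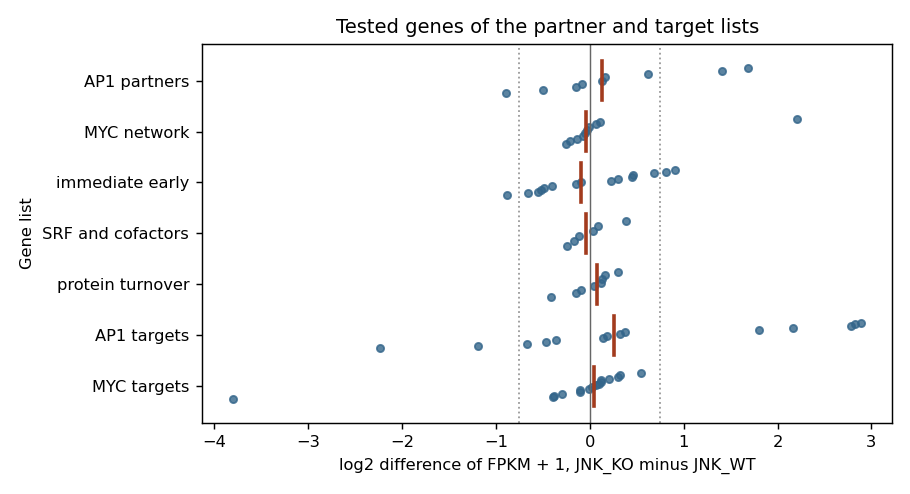
Difference of each tested gene of 7 lists between genotypes on the log2(FPKM + 1) scale, JNK_KO minus JNK_WT, with 1 point per gene and a vertical bar at the list's median. Dotted lines mark 0.75 in either direction. Medians lie between -0.089 and 0.26, and single genes such as Ccnd2 (-3.80), Mycl (2.21) and Mmp3 (2.89) lie far from them.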

How the data were processed

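Per the labels and the study's methods, the authors trimmed single-end reads (Trimmomatic), drew a sample of each library (seqtk), aligned them to mm10 (GRCm38) with TopHat2 2.0.14 and Bowtie2, and estimated FPKM with Cufflinks 2.2.1, with 1 value per gene and library and no pooling. The gene annotation and strandedness are not given in the sources used here. Cufflinks divides reads between overlapping transcripts by an estimate, so values of overlapping genes can trade reads.

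Of 38741 rows, 27 whose symbols had become dates and 1 without a number were left out. Genes at 1 FPKM or more in at least 2 libraries (12998) were tested on log2(FPKM + 1) with limma 3.58.1 (R 4.3.3, lmFit and eBayes with an intensity trend, two-sided, Benjamini-Hochberg adjustment over all tested genes). Such differences understate the change of genes with low values. Since FPKM are not counts, no count model was fitted. Groups came from the sample titles, and the lines are separate tumors. Shares carry no test. Positions and exon lengths came from GENCODE M21 (GRCm38) and promoters from RefSeq. Approximate reads are FPKM times kilobases of annotated exon over the most common such product among low genes, and are too high where annotated exons exceed those used by the authors.

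The members and lists were chosen with earlier results of these data known. Named are the 10 members, the targeted genes and markers, Max, and up to 3 genes per list with the largest difference among those over 0.75 in either direction with groups that do not overlap, of which 1 gene is not reported here. The fit was checked on simulated data in which 200 genes were changed by a known amount. Of the changed genes, 0% were called at a log2 difference of 1, 0% at 2 and 64.3% at 4. The measured variances were shuffled over genes there, which removes their relation to level, so these rates need not hold for the real fit. Other pseudocounts, filters, scalings, variance models and thresholds, and fits without each line, were tried. Figures used matplotlib 3.10.9.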

Additional observations from a re-analysis of the deposited data

How the results depend on the processing

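No paired analysis was possible because the lines are separate tumors and the labels name no pairs. With other pseudocounts, filters, scalings, variance models and thresholds, and without each line, 0 members were called and the lowest adjusted p-value of a member was 0.405. These counts say nothing about stability, since with 2 lines a group 0 of all 12998 genes were called. Of the members 2 had an absolute log2 difference over 0.75, which became 1 with a mean FPKM of at least 5 (Fosb is then not tested), 0 with a threshold of 1, and 2 to 6 without 1 line. The 3 members whose groups did not overlap became 5 to 8 without 1 line, as fewer libraries separate more easily by construction. Without 1 line, the log2 difference ranged from -0.16 to 0.90 for Junb, -1.33 to 0.21 for Jund, -1.67 to 1.91 for Fos, -0.91 to 0.75 for Fosl1, -0.30 to 0.064 for Atf2 and -0.12 to 0.54 for Myc, while Jun (0.16 to 0.86), Fosl2 (0.081 to 1.05), Fosb (-1.09 to -0.76) and Jdp2 (-1.18 to -0.48) kept their direction. The direction of 0 members reversed under the other settings. Among pool shares, a centred log ratio turned the differences of Fos to 0.39 and of Fosl1 to 0.057 on the log2 scale. With all 9 AP1 genes as the denominator, the share differences were -0.626 points for Fosb and 2.58 points for Fosl2, that of Fosl1 turned to 0.723 points, and that of Junb was 7.84 points. The cause was not tested. The fewest approximate reads of the members were about 228 for Fos in JNK_WT 1 and about 377 for Fosb in JNK_KO 3.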

Other observations

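In which line a list stood highest was counted after the values were seen. Of the 15 immediate early genes 10 were lowest in JNK_WT 1, where 29.0% of all tested genes were lowest, and 8 were highest in JNK_WT 2 and 6 in JNK_KO 3, where 26.9% and 21.7% of all tested genes were highest. Of the 10 tested genes of the MYC network 7 were highest in JNK_WT 2 and 6 were lowest in JNK_WT 1. The 16 MYC targets stood otherwise. Of these 10 were highest in JNK_KO 1, where 24.8% of all tested genes were highest, and 8 were lowest in JNK_KO 3, the line with the most Myc, where 19.2% of all tested genes were lowest. Genes of a list are not independent of each other, and these counts were not tested.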
